A study of Homo sapiens with 12 samples.

Results

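The nuclear factor I (NFI) family comprises 4 transcription factors, encoded by NFIA, NFIB, NFIC and NFIX. All 4 were measured, each by a single probe set, among 18417 genes in the human melanoma cell line SK-mel147. The members were chosen by the fall of NFIB with both hairpins against H2AZ2, measured against the control hairpins. Ranked by the less negative of its differences with sh_37 and sh_38, NFIB stood at rank 4 from the bottom (-1.22 and -1.11), next to CEMIP2 (-1.53 and -1.16) at rank 3 and TMX4 (-1.06 and -0.98) at rank 5. For this reason the differences of the members from the controls under H2AZ2 hairpins, and every value of NFIB under sh_37 and sh_38, are given as a description without a test.

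The study examined loss of the histone variant H2A.Z, which takes the place of H2A in some nucleosomes and is made from 2 genes, H2AZ1 and H2AZ2. Cells were infected with lentiviruses that express short hairpin RNAs, and RNA was measured on 12 Affymetrix arrays, with 2 arrays for each of 6 hairpins. Hairpins sh_37 and sh_38 target H2AZ2 (4 arrays), sh_83 and sh_84 target H2AZ1 (4 arrays), and scrambled and luciferase are the control hairpins (4 arrays). All arrays share the cell line and the infection with a hairpin virus. The sample titles speak of siRNA, whereas the treatment protocol describes lentiviral hairpins. The labels do not state whether the arrays of a hairpin came from separate cultures. For single hairpins the p-values therefore reflect array-to-array spread, possibly technical. For both hairpins of a target together they also take in the spread between those hairpins. The small number of arrays and hairpins limits the precision.

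All values below are log2 expression as deposited, and differences are on the log2 scale. Relative to the controls, sh_37 left H2AZ2 at 46.1% and sh_38 at 65.4%. With sh_83, H2AZ1 was at 19.3%, but it was at 92% in the arrays labelled sh_84 (limma adjusted p = 0.859). The labels of the second of these arrays also name different hairpins, so they are called the arrays labelled sh_84 throughout. Of the melanocyte lineage markers, the transcription factors SOX10, PAX3 and MITF averaged 10.62, 8.74 and 8.29 in control cells. The pigment cell genes PMEL (5.72), MLANA (5.09), TYR (4.84) and TYRP1 (4.76) were dim, with means over all arrays at percentiles 6.9 to 16.7 of all genes. Signal over background is unknown here.

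NFI proteins bind DNA as homodimers or heterodimers through a conserved N-terminal domain and recognise TTGGC, alone or as a palindrome, and they can activate or repress their targets. In melanoma, NFIB has been placed downstream of the POU factor BRN2 (gene POU3F2) and linked to the histone methyltransferase EZH2 and to MITF. In mouse hair follicle stem cells NFIB restrains the behaviour of neighbouring melanocyte stem cells. In mouse, NFIA drives the onset of glial development, NFIX a switch in the fetal muscle programme, and NFIC the growth of tooth roots.

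The promoters of NFIB and NFIA are shown because these genes had the largest differences of the family. Each window is the first that RefSeq lists for the gene on GRCh38.p14 and holds 250 bases before and 50 bases after the transcript start, read 5′ to 3′ on the gene's strand. Capitals mark TTGGC or CCAAT on either strand. The NFIB window lies at chr9:14322338-14322637 on the minus strand, and the NFIA window at chr1:61076977-61077276 on the plus strand.
NFIB: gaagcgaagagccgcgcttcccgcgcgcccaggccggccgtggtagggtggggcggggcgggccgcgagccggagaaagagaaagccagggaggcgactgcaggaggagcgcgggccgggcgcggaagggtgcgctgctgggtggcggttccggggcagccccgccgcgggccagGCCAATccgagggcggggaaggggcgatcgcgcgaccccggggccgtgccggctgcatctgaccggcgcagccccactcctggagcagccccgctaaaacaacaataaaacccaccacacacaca
NFIA: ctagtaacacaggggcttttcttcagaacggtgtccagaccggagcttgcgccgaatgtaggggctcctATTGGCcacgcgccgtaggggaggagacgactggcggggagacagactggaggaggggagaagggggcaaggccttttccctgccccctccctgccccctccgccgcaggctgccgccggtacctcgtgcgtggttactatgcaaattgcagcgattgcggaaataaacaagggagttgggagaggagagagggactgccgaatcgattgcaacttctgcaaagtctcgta
Each window held 1 match to TTGGC and 1 to CCAAT, which overlap in both. Over all 35116 listed promoter windows, 45.6% held TTGGC and 34.6% held CCAAT on either strand. For the whole family, TTGGC was found in 6 of 10 windows of NFIB, 1 of 3 of NFIA, 2 of 5 of NFIX and 0 of 1 of NFIC. The 2 NFIX windows with it nearly coincide, at chr19:13024329-13024628 and chr19:13024331-13024630. CCAAT was found in 2 of 10 windows of NFIB, 1 of 3 of NFIA, 1 of 5 of NFIX and 0 of 1 of NFIC. The full palindrome, TTGGC followed by any 5 bases and GCCAA, was in none of these windows and in 10 of the 35116. The windows of NFIB and NFIA shown had a GC content of 73.7% and 60.0%. A match describes the letters of a window and does not show binding.

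NFIB, on chromosome 9, was lower on every array with an H2AZ2 hairpin than on any control array. It measured 9.31 and 8.94 with sh_37, 9.37 and 9.09 with sh_38, and 10.33 and 10.09 with scrambled and 10.42 and 10.51 with luciferase. The highest array with an H2AZ2 hairpin lay 0.73 below the lowest control array. The mean was 9.17 ± 0.20 with H2AZ2 hairpins and 10.34 ± 0.18 in the controls (SD, n = 4 each), a difference of -1.17 (SE 0.13), or 44.58% of the control level. This was the eighth lowest difference of the 18417 genes, whose median was 0.03. By hairpin, NFIB stood at 42.99% of the controls with sh_37 and at 46.22% with sh_38. In these bulk samples, fewer cells that express a gene and less RNA per cell cannot be told apart.

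The NFIB arrays of sh_37 and sh_38 overlapped. The difference, sh_37 minus sh_38, was -0.10 (SE 0.15). It is not tested, because NFIB was chosen for being low with both. H2AZ2 itself was lower with sh_37 than with sh_38 (-0.50, SE 0.09, limma adjusted p = 0.00763).

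NFIA, on chromosome 1, was low with sh_38 and close to the controls with sh_37. It measured 7.58 and 7.53 with sh_37, 6.80 and 6.39 with sh_38, and 7.73 and 7.52 with scrambled and 7.65 and 7.79 with luciferase. Both sh_38 arrays lay below all control arrays, and both sh_37 arrays lay within the range of the controls. As differences from the controls, NFIA stood at -1.08 with sh_38 (SE 0.12, 47.36% of the control level) and at -0.12 with sh_37 (SE 0.12).

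For NFIA, NFIC and NFIX the difference between these hairpins was tested. No control array enters it. NFIA was higher with sh_37 than with sh_38 by 0.96 (SE 0.14, 95% confidence interval 0.66 to 1.26, limma adjusted p = 0.00207). Over all genes, 6.27% passed this test in either direction and 4.07% in this one. NFIA passed it under all 18 alternatives run, with values of 0.76 to 1.16 and limma adjusted p between 0.000927 and 0.0288. Neither NFIX nor NFIC passed. NFIX stood at 0.23 (SE 0.08, 95% confidence interval 0.05 to 0.41, limma adjusted p = 0.16) and NFIC at -0.03 (95% confidence interval -0.22 to 0.16, limma adjusted p = 0.9). NFIA averaged 7.08 ± 0.58 over both H2AZ2 hairpins and 7.67 ± 0.12 in the controls (SD, n = 4 each). The difference of -0.60 (SE 0.24) rests on sh_38 and stood at -0.39 without replicate 2 of sh_38.

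NFIX, on chromosome 19, was the only member with a higher mean under H2AZ2 hairpins. It measured 10.70 and 10.65 with sh_37, 10.44 and 10.46 with sh_38, and 10.26 and 10.34 with scrambled and 10.43 and 10.47 with luciferase. The sh_37 arrays lay above all controls, whereas the sh_38 arrays lay within their range. The difference from the controls was 0.30 with sh_37 (SE 0.07), 0.07 with sh_38 (SE 0.07) and 0.18 over both (SE 0.10). The value over both depended on the control hairpin, with 0.26 against scrambled alone and 0.11 against luciferase alone.

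NFIC, also on chromosome 19, spanned 11.16 to 11.50 over all arrays. It measured 11.32 and 11.16 with sh_37, 11.28 and 11.27 with sh_38, and 11.45 and 11.50 with scrambled and 11.45 and 11.42 with luciferase. All 4 arrays with H2AZ2 hairpins lay below all 4 control arrays, by as little as 0.10. The difference was -0.20 (SE 0.07), or 87.2% of the control level. With sh_37 it was -0.21 and stood at -0.13 without replicate 2 of that hairpin. In all, 7.46% of genes had the 4 arrays with H2AZ2 hairpins below all controls, a condition NFIB and NFIC met, and 4.14% had them above, a condition no member met.

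**Figure D1:**
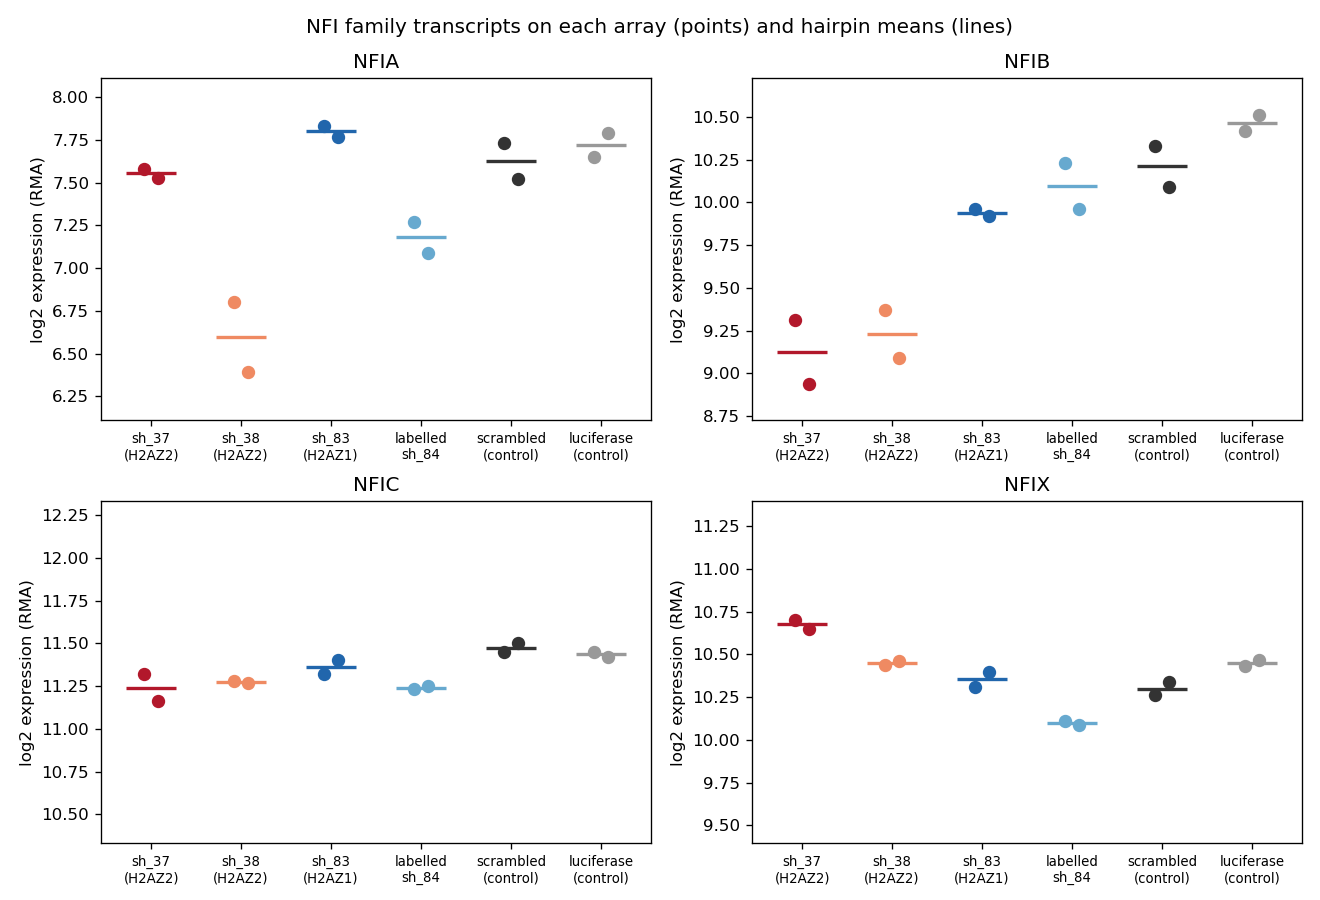
Log2 expression of NFIA, NFIB, NFIC and NFIX (vertical axis, RMA values, 1 panel per gene with axes of equal span) by hairpin (horizontal axis). Points are arrays and lines are means of 2 arrays. NFIB is low with both H2AZ2 hairpins, at 8.94 to 9.37 against 10.09 to 10.51 in the controls, while NFIA is lowest with sh_38, at 6.39 and 6.80.

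Hairpins against H2AZ1 were set against the same controls. These arrays took no part in the choice of the family, but the 4 control arrays did. NFIB measured 9.96 and 9.92 with sh_83 and 10.23 and 9.96 in the arrays labelled sh_84, against 10.09 to 10.51 in the controls. Both sh_83 arrays and 1 of the arrays labelled sh_84 lay below all controls. The difference with sh_83 was -0.40 (SE 0.13, 95% confidence interval -0.68 to -0.11, 75.98% of the control level), which did not pass (limma adjusted p = 0.274; 0.641% of genes passed). In the arrays labelled sh_84 it was -0.24 (SE 0.13, limma adjusted p = 0.695; 0.353% of genes passed), and -0.10 without the array whose labels disagree. Over the 4 arrays NFIB averaged 10.02 ± 0.14 (SD, n = 4), a difference of -0.32 from the controls (SE 0.13, limma adjusted p = 1; 0% of genes passed). The targeted gene H2AZ1 did not pass this pooled test either (-1.25, SE 0.43). The test therefore cannot decide whether a gene responds to loss of H2AZ1. Set beside each other, the means of NFIB were 9.17 with H2AZ2 hairpins and 10.02 with H2AZ1 hairpins, a difference of -0.85 given without a test.

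NFIA had a lower mean in the arrays labelled sh_84 than with sh_83, but this difference did not pass. It measured 7.83 and 7.77 with sh_83 and 7.27 and 7.09 in the arrays labelled sh_84, against 7.52 to 7.79 in the controls. Of the sh_83 arrays 1 lay above the control range and the other within it, and the arrays labelled sh_84 below it. Against the controls NFIA stood at 0.13 with sh_83 (SE 0.12, 95% confidence interval -0.14 to 0.39, limma adjusted p = 0.749). In the arrays labelled sh_84 it stood at -0.50 (SE 0.12, 95% confidence interval -0.76 to -0.23, limma adjusted p = 0.143), and at -0.40 without the array whose labels disagree. The direct difference, a comparison chosen after its values were seen, was 0.62 for sh_83 minus the arrays labelled sh_84 (SE 0.14, limma adjusted p = 0.0614; 1.19% of genes passed). It passed when either array of sh_38 was left out (limma adjusted p = 0.0271), and with any other array left out the limma adjusted p was at most 0.443 and did not pass.

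NFIX was lowest in the arrays labelled sh_84, at 10.11 and 10.09, and measured 10.31 and 10.40 with sh_83, against 10.26 to 10.47 in the controls. The difference was -0.28 in the arrays labelled sh_84 (SE 0.07, limma adjusted p = 0.181) and -0.02 with sh_83 (SE 0.07, limma adjusted p = 0.921). NFIC measured 11.32 and 11.40 with sh_83 and 11.23 and 11.25 in the arrays labelled sh_84, all below the lowest control at 11.42, as 2.58% of genes did. Its differences were -0.10 with sh_83 (limma adjusted p = 0.695) and -0.22 in the arrays labelled sh_84 (SE 0.07, limma adjusted p = 0.384). Over both hairpins NFIA stood at -0.18, NFIC at -0.16 and NFIX at -0.15 (limma adjusted p = 1 for each). Without the array whose labels disagree these were -0.07, -0.14 and -0.11.

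The control hairpins give the background of such differences. For scrambled minus luciferase NFIB stood at -0.26 (SE 0.15, limma adjusted p = 0.685), NFIX at -0.15 (limma adjusted p = 0.684), NFIA at -0.10 (limma adjusted p = 0.832) and NFIC at 0.04 (limma adjusted p = 0.885). No gene passed this test (0% of genes). The value of NFIB with the arrays labelled sh_84 is thus of the size seen between the controls.

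**Figure D2:**
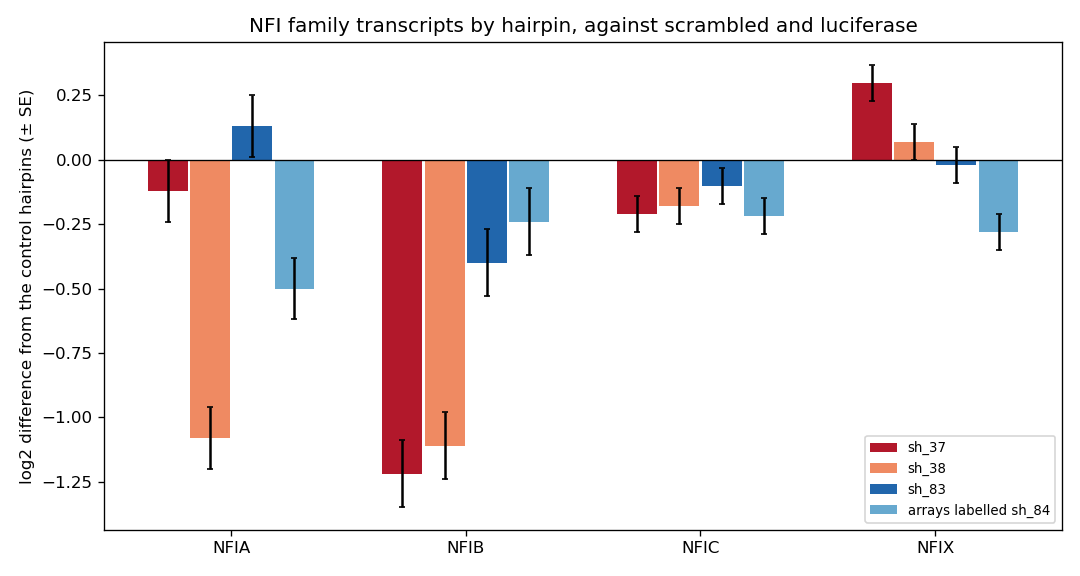
Log2 difference of each NFI gene (horizontal axis) from the mean of the control hairpins (vertical axis) for sh_37, sh_38, sh_83 and the arrays labelled sh_84, with bars for the estimate and whiskers for its SE (2 arrays per hairpin, all against the same 4 control arrays). NFIB is negative with each hairpin, from -1.22 to -0.24, and NFIA is far below 0 with sh_38 (-1.08) and with the arrays labelled sh_84 (-0.50).

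Across the 6 hairpins the members did not share an order. For NFIB, sh_37 and sh_38 were lowest (9.12 and 9.23) and their arrays overlapped, sh_83 followed at 9.94 with a gap of 0.72 in the means, the arrays labelled sh_84 stood at 10.10, and scrambled and luciferase were highest at 10.21 and 10.47. The arrays of sh_83 overlapped those labelled sh_84, and these overlapped scrambled, whereas luciferase lay above scrambled without overlap. For NFIA, sh_38 was lowest (6.60) and the arrays labelled sh_84 next (7.18). For that gene sh_37 and sh_83 averaged 7.56 and 7.80, and their arrays overlapped with neighbours among the controls, scrambled at 7.62 and luciferase at 7.72. For NFIX the arrays labelled sh_84 were lowest (10.10) and sh_37 highest (10.67), and for NFIC the means of all hairpins lay between 11.24 and 11.48. As a description over the 12 arrays, Pearson's r was 0.67 for NFIB with NFIC, 0.54 for NFIA with NFIB, 0.49 for NFIA with NFIC and -0.57 for NFIB with NFIX. These arrays fall into hairpins and share control arrays, so the correlations are not tested.

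Other genes with a pattern like that of each member were listed by Pearson's r over the 12 arrays, among 9209 genes at or above the median level. The highest for NFIB were ZC3H12C, an RNA-binding protein of the Regnase family (0.984), TIMELESS, a replication fork protein (0.982), STIM2, a calcium sensor of the endoplasmic reticulum (0.973), SNX24 (0.970), MTMR12 (0.963), TMX4 (0.962), BUD13 of the RES splicing complex (0.960) and the carnitine transporter SLC22A5 (0.959). The lowest were SPOCD1 (-0.941), ACBD3 of the Golgi (-0.939), the kinase DAPK3 (-0.933) and FSTL3, which binds activin (-0.933). The median r of all 9209 genes with NFIB was 0.181. Differences from the controls were -0.77 and -0.75 with sh_37 and sh_38 for ZC3H12C, and 1.25 and 0.72 for FSTL3. These genes were chosen for their likeness, so their differences are a description.

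**Figure D3:**
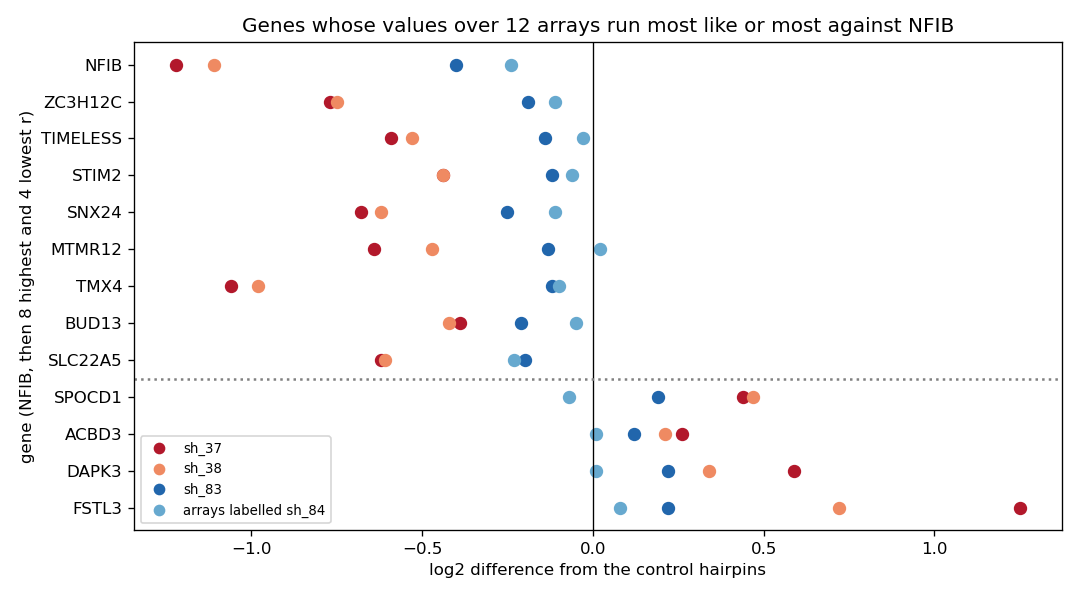
Log2 difference from the control hairpins (horizontal axis) of NFIB, of the 8 genes with the highest r with NFIB over 12 arrays and, under the dotted line, of the 4 genes with the lowest (vertical axis). Colours are hairpins, each a mean of 2 arrays. NFIB and TMX4 lie farthest to the left with sh_37 and sh_38, and FSTL3 farthest to the right.

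For NFIA the most like genes were the endocytosis protein NECAP1 (0.946), the glutathione transferase GSTM4 (0.936) and the homeobox factor MEIS2 (0.926). They stood at 0.06, 0.16 and -0.12 with sh_37 and at -0.85, -0.95 and -0.77 with sh_38. For NFIC they were RAB11B (0.902), ALDH16A1 (0.899) and TBCB (0.897). For NFIX they were NDRG4 (0.975), the matrix proteoglycan LUM (0.968) and the lipoprotein receptor SCARB1 (0.966). LUM is also on the list of fibroblast markers. LUM rose with sh_37 (1.27, limma adjusted p = 1.18e-05) and with sh_38 (0.38, limma adjusted p = 0.0374). The second call was lost without either array of sh_38, sh_83 or luciferase or without replicate 1 of scrambled, and the value was 0.00 against luciferase alone. LUM stood at 0.22 with sh_83 and -0.85 for the arrays labelled sh_84. The mean level of the 6 fibroblast markers was 6.28 to 6.29 with sh_37, 6.13 to 6.23 with sh_38, 6.13 to 6.17 with sh_83 and 5.89 to 5.95 for those labelled sh_84, against 6.03 to 6.09 with scrambled and 6.04 to 6.11 with luciferase. Without LUM, a setting chosen after seeing the data, the mean of the other 5 was 5.50 to 5.55 with sh_37, 5.51 to 5.64 with sh_38, 5.54 to 5.60 with sh_83 and 5.46 to 5.56 for those labelled sh_84, against 5.54 to 5.63 with scrambled and 5.40 to 5.50 with luciferase. The range with sh_37 then overlapped that of scrambled. In the fit of both H2AZ2 hairpins 0 of the 6 markers rose and 1 fell (0.863% and 2.44% of all genes), PRRX1 (-0.41, SE 0.10, limma adjusted p = 0.0344). This call was lost without replicate 1 of scrambled, replicate 2 of sh_37, either array of sh_38 or either of luciferase (limma adjusted p up to 0.142). The markers DCN and FAP were dim, at 3.46 and 4.71 in the controls. Whether any fibroblasts were present in these cell line samples, or contributed to the NFIX values, was not tested.

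The genes next to NFIB on chromosome 9 were examined beside it. Of the 4 nearest measured genes on each side, 0 of 8 passed with H2AZ2 hairpins (3.31% of all genes passed), with a median difference of 0.01. On one side lie PTPRD, TYRP1, LURAP1L and MPDZ, and on the other ZDHHC21, CER1, FREM1 and TTC39B. They ranged from -0.38 for the receptor phosphatase PTPRD (SE 0.11, limma adjusted p = 0.0966) to 0.30 for LURAP1L (SE 0.19, limma adjusted p = 0.454). With sh_37 alone PTPRD passed at -0.43 (limma adjusted p = 0.039), a call that 9 of 12 single arrays left out removed.

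Genes were counted in 4 lists: PRC2 subunits, partners and regulators of the NFI family, reported NFI targets and melanocyte lineage genes. The PRC2 and melanocyte lists were not limited to genes reported to work with NFI proteins. Among the 11 subunits of PRC2, the complex that methylates histone H3 at lysine 27, 2 fell and 0 rose with H2AZ2 hairpins, with a median of -0.25 (all genes 0.03). Over all genes, 2.44% fell and 0.863% rose (3.31% in either direction). EZH2, the catalytic subunit, measured 9.33 and 9.38 with sh_37, 9.67 and 9.36 with sh_38, 9.73 and 9.79 with sh_83 and 10.22 and 10.08 in the arrays labelled sh_84, against 10.02 and 10.09 with scrambled and 9.90 and 10.10 with luciferase. No H2AZ2 hairpin array reached the lowest control, as for 7.46% of all genes. EZH2 fell with H2AZ2 hairpins (-0.59, SE 0.12, limma adjusted p = 0.0185), and with each alone, at -0.67 with sh_37 (limma adjusted p = 0.00151) and -0.51 with sh_38 (limma adjusted p = 0.0173). It did not pass with sh_83 (-0.27, limma adjusted p = 0.384) or in the arrays labelled sh_84 (0.12, limma adjusted p = 0.865).

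The fall of EZH2 with H2AZ2 hairpins did not pass without replicate 1 of scrambled (limma adjusted p = 0.0931) or replicate 2 of luciferase (0.0526), and with sh_38 alone it did not pass without replicate 2 of sh_38 (0.247) or replicate 2 of luciferase (0.057). PHF19, which helps recruit PRC2, also fell (-0.39, SE 0.10, limma adjusted p = 0.0422), a call lost when any of 8 arrays was left out: replicate 1 of scrambled, either array of sh_37 or luciferase, replicate 1 of sh_38, replicate 2 of sh_83 or replicate 1 of sh_84. With a replicate block it did not pass either (limma adjusted p = 0.0613). The other core subunits did not pass, with SUZ12 at -0.32 (limma adjusted p = 0.139), EED at -0.27 (limma adjusted p = 0.294) and EZH1 at -0.25 (limma adjusted p = 0.389). RBBP7 stood at -0.17 (limma adjusted p = 0.219) and RBBP4 at -0.09 (limma adjusted p = 0.557). JARID2, an accessory subunit, was the only member above 0, at 0.35 (limma adjusted p = 0.0827). By hairpin 1 rose and 2 fell with sh_37 and likewise with sh_38, but not all were the same genes. JARID2 rose with sh_37 (0.32, limma adjusted p = 0.0106) and with sh_38 (0.37, limma adjusted p = 0.0139). EZH2 and PHF19 fell with sh_37, and EZH2 and PHF1 (-0.42, limma adjusted p = 0.0235) with sh_38. PHF19 stood at -0.28 with sh_38 (limma adjusted p = 0.0788). The calls of JARID2 and PHF1 were lost without some single arrays. Over all genes, 12.9% passed with sh_37 (5.72% rose and 7.19% fell) and 4.6% with sh_38 (1.28% rose and 3.33% fell). Of the PRC2 list 0 passed with sh_83 or in the arrays labelled sh_84 (0.641% and 0.353% of all genes passed).

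Of 10 measured partners and regulators of the family, 1 fell and 0 rose with H2AZ2 hairpins, with a median of -0.06. Over all genes, 2.44% fell and 0.863% rose. POU3F2, the gene of BRN2, averaged 7.56 in the controls and differed by 0.05 (SE 0.12, limma adjusted p = 0.852). ETV1, an ETS factor that acts with NFI proteins in maturing mouse cerebellar granule neurons, fell by 1.33 on the log2 scale (SE 0.25, limma adjusted p = 0.0131). It measured 7.33 and 6.95 with sh_37, 8.43 and 8.18 with sh_38, and 8.80 to 9.22 in the controls. Both sh_37 arrays lay below those of sh_38, and all 4 below the controls, as for 7.46% of all genes. Its call was lost without replicate 1 of scrambled (limma adjusted p = 0.0718). With sh_37, SOX11, a SOX factor of neural development, rose by 0.52 (SE 0.07, limma adjusted p = 0.00113), and with sh_38 it stood at 0.04 (limma adjusted p = 0.784).

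Of 22 reported NFI targets, taken largely from mouse studies, 1 rose and 0 fell with H2AZ2 hairpins, with a median of 0.08. Over all genes, 0.863% rose and 2.44% fell. The gene that rose was CDKN1A, the cell cycle inhibitor p21, which NFI proteins have been reported to repress. It measured 10.65 and 10.51 with sh_37 and 10.43 and 10.43 with sh_38, against 9.76 and 9.86 with scrambled and 10.11 and 9.94 with luciferase. All 4 arrays lay above the controls, as for 4.14% of all genes. The difference was 0.59 (SE 0.12, limma adjusted p = 0.0185), a call lost without replicate 1 of scrambled (limma adjusted p = 0.0987). CDH2, the neural cadherin, stood at 0.19 (limma adjusted p = 0.235), EDN2, which hair follicle cells express when NFIB is lost in mouse, at 0.15 (limma adjusted p = 0.567), and the glial genes GFAP and FABP7 at 0.17 (limma adjusted p = 0.306) and -0.08 (limma adjusted p = 0.659). ZCCHC24 fell with sh_37 by 0.57 on the log2 scale (SE 0.08, limma adjusted p = 0.000849) and stood at -0.22 with sh_38 (limma adjusted p = 0.156). It also fell in the arrays labelled sh_84 (-0.45, limma adjusted p = 0.0429), a call lost when any of the 12 arrays was left out (limma adjusted p 0.0501 to 0.473).

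Of 10 measured melanocyte lineage genes (DCT is not analysed here), 1 fell and 0 rose with H2AZ2 hairpins, with a median of 0.00. Over all genes, 2.44% fell and 0.863% rose. MITF, the lineage regulator, stood at -0.07 (SE 0.08, limma adjusted p = 0.683). PAX3, an upstream regulator of MITF, fell by 0.49 (SE 0.11, limma adjusted p = 0.0265), a call lost when any of 5 arrays was left out: replicate 1 of scrambled, replicate 2 of sh_37 or sh_38, or either array of luciferase. With sh_37 alone 1 of the list rose and 2 fell (5.72% and 7.19% of all genes). The receptor tyrosine kinase KIT, dim at 5.27 in the controls, rose with sh_37 by 1.06 (SE 0.14, limma adjusted p = 0.000562). It stood at 0.00 with sh_38 (limma adjusted p = 0.988). PAX3 (-0.40, limma adjusted p = 0.0358) and SOX10 (-0.30, limma adjusted p just under 0.05) fell with sh_37, calls lost with most single arrays left out. Over both H2AZ1 hairpins together 0 genes passed in any of the 4 lists, as 0 of all genes did. H2AZ1 itself did not pass there, so that test cannot decide whether list genes respond to its loss. By hairpin 0 passed with sh_83, and 1, ZCCHC24, in the arrays labelled sh_84 (0.641% and 0.353% of all genes passed). Of the calls of EZH2, PHF19, ETV1, CDKN1A and PAX3 with H2AZ2 hairpins, 0 of 5 passed against scrambled alone or luciferase alone, settings with 2 control arrays in place of 4. The differences there were -0.62 and -0.56 for EZH2, -0.45 and -0.33 for PHF19, -1.24 and -1.41 for ETV1, 0.70 and 0.48 for CDKN1A and -0.41 and -0.57 for PAX3. The keratinocyte, endothelial and leukocyte markers had 0 of 6, 0 of 5 and 0 of 4 measured genes called with H2AZ2 hairpins (3.31% of all genes).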

How the data were processed

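RNA of SK-mel147 cells was measured on 12 Affymetrix Human Gene arrays. The deposited log2 values, 1 per probe set, were made by RMA, per the submitters' processing notes, with software, version and filters not given in the sources used here. Array medians ranged from 7.0 to 7.097, and no further normalization was applied. The platform annotation gave 1 symbol for 19460 of the 33297 probe sets, several for 1754 and none for 12083, which it does not list. Only the first kind named a gene, and 19429 of them matched the RefSeq gene table (GRCh38.p14) by Entrez ID. The brightest probe set by mean over all arrays stood for a gene, which gave 18417 genes. Each NFI gene had a single probe set.

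Tests used limma 3.58.1 in R 4.3.3 over all 12 arrays, with eBayes, p-values adjusted by Benjamini-Hochberg across the 18417 genes, and a threshold of 0.05. The fit of 3 targets took the hairpin as a random block (correlation 0.157), and the fit by hairpin used 6 groups of 2 arrays. Both were tried on simulated data, for H2AZ2 hairpins and for sh_83 against the controls, with equal changes planted in both H2AZ2 hairpins. The difference between sh_37 and sh_38 was not tried there. Scan batches and array backgrounds were not analysed here. For replicate 2 of sh_84 the title was followed where its labels disagree.

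The members and the gene lists were chosen with earlier results of these data known. Named genes are the 4 members, H2AZ1 and H2AZ2, the 8 genes most like and 4 most unlike NFIB, the 3 most like each other member, the 4 measured neighbours on each side of NFIB, and list genes called with H2AZ2 hairpins, or the 2 largest where none was called. Other list genes (those of single hairpins, JARID2, the core PRC2 subunits, POU3F2, MITF, CDH2, EDN2, GFAP, FABP7 and pigment genes) were picked after their values were seen. Alternatives covered the replicate block, the hairpin block, each control hairpin alone, probe set averaging, renormalization, centring, the dimmest 25% of genes, the variance model and each array left out. Figures were drawn with matplotlib 3.10.9.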

Additional observations from a re-analysis of the deposited data

Results flagged for a closer look

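NFIB in the 4 arrays with H2AZ1 hairpins had 1 array far from the others. Replicate 1 of sh_84 stood at 10.23, while the other arrays lay at 9.92 to 9.96, and the gap was 0.886 of the range of the 4 arrays, above Dixon's critical value for groups of this size. Chance flags about 1 in 20 such groups, and 12 groups of the family were examined. Without that array the difference of NFIB with H2AZ1 hairpins from the controls was -0.39 (limma adjusted p = 0.91), against -0.32 with it. NFIA differed between the hairpins of the same target, with sh_37 minus sh_38 at 0.96 (limma adjusted p = 0.00207).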

How the results depend on the processing

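Over 36 results of the members, 688 of 712 alternative values left a test on its side of the threshold or, for described values, moved by less than the spread between replicates. Many of these could not move a described value: probe set averaging, the replicate block, dropping the hairpin block and averaging the hairpins per target. The same holds for the variance model, leaving out the dimmest 25% of genes and leaving out an array outside the comparison. For NFIX, the difference with H2AZ2 hairpins (0.18) was 0.26 against scrambled alone, 0.11 against luciferase alone and 0.24 after quantile normalization. With sh_37 (0.30) these were 0.37, 0.22 and 0.35, and with sh_38 (0.07) they were 0.14, 0.00 and 0.13. NFIX in the arrays labelled sh_84 (-0.28) passed with a trended and robust variance (limma adjusted p = 0.0441). NFIA for sh_83 minus the arrays labelled sh_84 (0.62) passed with a replicate block (limma adjusted p = 0.0345), with the dimmest 25% left out (0.0425) and with a trended and robust variance (0.0412).

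With single arrays left out, NFIA with H2AZ2 hairpins ranged from -0.75 to -0.39 and with sh_38 from -1.28 to -0.87, and sh_83 minus the arrays labelled sh_84 from 0.53 to 0.71. NFIB ranged from -1.24 to -1.09 with H2AZ2 hairpins and from -1.40 to -1.03 with sh_37. NFIC with sh_37 ranged from -0.29 to -0.13, and NFIX with H2AZ2 hairpins from 0.14 to 0.21. The 5 list genes called with H2AZ2 hairpins (EZH2, PHF19, ETV1, CDKN1A and PAX3) became 0 against scrambled alone and 0 against luciferase alone (each with fewer control arrays), 11 with the hairpins averaged per target, and 0 to 6 with single arrays left out. All genes called in that comparison numbered 609, and 66 to 847 with single arrays left out. LUM with sh_38 stood at 0.00 against luciferase alone.

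Whether same-numbered arrays form pairs was not settled. Over the 15 pairs of hairpins, same-numbered arrays correlated in their deviations from the hairpin means from -0.47 to 0.68, with 9 pairs over 0.1. Each hairpin has 1 array of each number, so a replicate block cannot move the differences of the members, only their SE and p-values. With it, 4 of the list genes stayed called with H2AZ2 hairpins. Signal over background is unknown, which limits what can be said of dim genes.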
